A study of Populus tremula x Populus alba with 72 samples.

Results

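The genes described here are 92 genes of hybrid poplar leaves whose transcript level on day 13 was higher at 100 ppb ozone than in the control in growing leaves, while the same difference in expanded leaves was small. A gene was eligible when its mean normalised read count reached 100 in at least 1 of the 18 groups, which 23307 of the 34699 listed genes did. The level of a gene in a group was the mean of log2(normalised reads + 1) over its 4 libraries, and all log2 values below are on this scale, which understates changes of genes with few reads. Genes were selected on these day 13 differences: they were taken when the level at 100 ppb exceeded the control by at least 0.8 in growing leaves and differed from it by under 0.3 in expanded leaves, and the limit of 150 genes was not reached. Of the 2409 eligible genes that passed the condition in growing leaves, 2267 were raised by 0.3 or more in expanded leaves too and 50 were lowered there by 0.3 or more, which left these 92. All 92 are among the 27780 genes with enough reads to be tested.

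The trees were Populus tremula x alba of a single micropropagated clone, INRAE 717-1B4, 2.5 months old when the exposure began. The groups were charcoal-filtered air with 100 ppb ozone, the same air with 80 ppb ozone, and the filtered air alone as the control, all in phytotronic chambers and with ozone in the daytime. Growing and expanded leaves were sampled on days 2, 8 and 13, with 4 libraries in each of the 18 groups, and messenger RNA was sequenced to between 23.2 M and 54.3 M reads per library (median 39.4 M, M for mega-reads). The labels do not tie a replicate number to a tree or chamber, so each p-value reflects variation among the sequenced libraries, which may be technical. How the air treatments were spread over chambers is not in the labels, and the part of the chamber in any difference was not tested.

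Ozone enters leaves through the stomata and breaks down in the cell walls to reactive oxygen species, which set off defence, antioxidant and cell death programmes. A growing leaf imports carbon and builds cells and walls, whereas an expanded leaf exports sugars, so transcript levels follow leaf development even in clean air. Leaves were sequenced whole, and fewer cells of a type cannot be told apart from less of a transcript per cell. The table used here pairs no identifier with a product, so genes are given by identifier and no function is assigned to them.

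The day 13 differences of the choice rested on 16 libraries, and single libraries moved the list. In expanded control leaves of day 13 the median level of the 92 genes was 7.62 in replicate 1, against 9.07, 8.45 and 8.75 in replicates 2, 3 and 4. Replicate 1 held the lowest of the 4 control values in 67 of the 92 genes. In the same way replicate 1 was the lowest of growing leaves at 100 ppb in 61 genes and replicate 4 the lowest of expanded leaves at 100 ppb in 54. No share of the eligible genes is given for these counts. In replicate 1 of the expanded controls the median difference from the group mean was -0.66 over the 92 genes and -0.02 over the tested genes. The values of the expanded controls of day 13 spanned at least 4-fold in 35 of the 92 genes (38%). Among all eligible genes 8.67% spanned as much there, and among the 2267 genes raised at both positions 38.9% did. In growing control leaves of the same day 9 of the 92 genes spanned as much (9.78%). Without replicate 1 of the expanded controls the rule took 137 genes and kept 56 of the 92. Without replicate 2 or 4 of that group it kept 50 or 59, and without replicate 4 of expanded leaves at 100 ppb it kept 61. Leaving out the other libraries of the choice, each in turn, kept up to 90, and 6 of the 92 genes stayed in under all 16 omissions. A small difference in expanded leaves on day 13 thus describes these 8 expanded libraries and their spread.

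By the rule, the day 13 difference between 100 ppb and control in growing leaves ran from 0.80 to 3.58 with a median of 1.02. It reached 1 in 49 genes and 2 in 5. In expanded leaves the same difference ran from -0.28 to 0.30 with a median of 0.12, above 0 in 64 genes and below 0 in 28. The standard error of a day 13 difference had a median of 0.31 over the 92 genes and exceeded 0.3, the width allowed in expanded leaves, in 50 of them. The values nearest to the growing leaf threshold were 0.802 and 0.808 inside and 0.793 and 0.791 outside. For the size of the expanded leaf difference they were 0.298 and 0.294 inside and 0.306 and 0.309 outside. These values chose the genes and stand as a description.

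**Figure D1:**
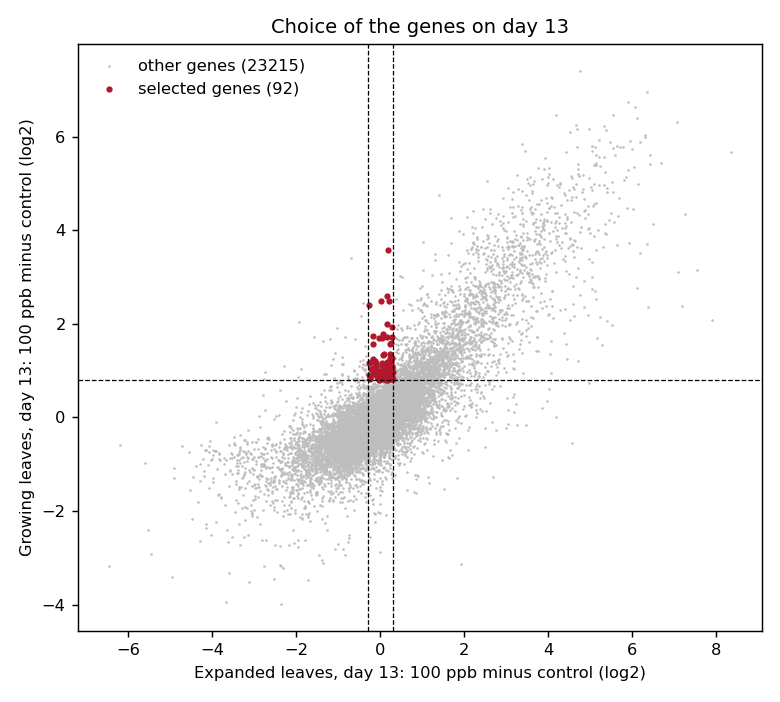
Day 13 difference between 100 ppb and control (log2) in expanded leaves on the x axis and in growing leaves on the y axis, 1 point per eligible gene. The 92 selected genes (red) lie between the vertical lines at -0.3 and 0.3 and above the horizontal line at 0.8, at the edge of a cloud of genes that are raised at both positions.

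In growing leaves of day 13 the group mean rose with each ozone level in most of these genes. The median level of the 92 genes was 7.71, 7.85, 7.87 and 7.76 in the 4 control libraries, 8.15, 8.14, 8.40 and 7.98 at 80 ppb, and 8.58, 9.13, 9.17 and 8.85 at 100 ppb. The 3 groups did not overlap in this median. The mean at 80 ppb lay between the control and 100 ppb in 86 of 92 genes and above the control in 87. All 4 libraries at 80 ppb exceeded all 4 controls in 9 genes (9.78%), against 2.54% of the tested genes. All 4 at 100 ppb did so in 63, a count that the rule favoured. No share of the tested genes is given for the counts of 63 and 86. The difference at 80 ppb had a median of 0.32 and ran from -0.41 to 2.25. It shares the control libraries with the choice and was not tested. The rise from control to 100 ppb was set by the rule. At 80 ppb the mean also exceeded the control in 2205 of the 2267 genes raised at both positions (median 0.53), and in 12643 of the 27780 tested genes.

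The levels of day 13 also differed between leaf positions. In control air the mean was lower in growing than in expanded leaves in 76 of the 92 genes, with a median difference of -0.56. At 100 ppb it was higher in growing than in expanded leaves in 62 genes, with a median difference of 0.33. The rule asked for a larger ozone difference in growing leaves, so the shift between these medians was built into the choice. In control air 2029 of the 2267 genes raised at both positions were lower in growing leaves too, with a median difference of -0.63. In expanded leaves the medians per library were 7.62 to 9.07 in the control, 8.42 to 8.63 at 80 ppb and 8.01 to 8.86 at 100 ppb, and the control libraries spanned the range of both ozone groups. No gene had all 4 expanded libraries at 100 ppb above all 4 controls on day 13. The rule asked for a small difference between those groups, so a low count was built into the choice.

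**Figure D2:**
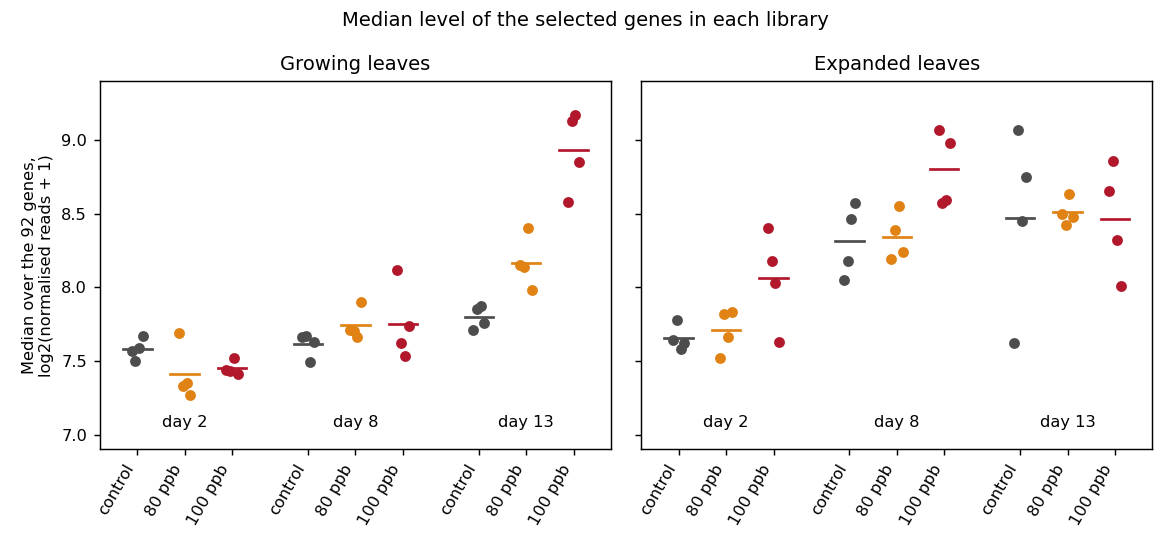
Median level of the 92 genes in each library (log2 of normalised reads + 1), growing leaves left and expanded leaves right, by day and ozone level; points are libraries and lines are group means. In growing leaves of day 13 the 4 libraries at 100 ppb sit between 8.58 and 9.17 and the controls between 7.71 and 7.87, while in expanded leaves the mean at 100 ppb is the highest of the 3 on days 2 and 8.

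Potri.014G092932 had the largest day 13 difference in growing leaves. It had 280.5, 566.7, 702.2 and 422.7 normalised reads in growing leaves at 100 ppb, against 33.5, 35.13, 44.56 and 39.42 in growing control leaves. The groups did not overlap, and the difference was 3.58 on the log2 scale (SE 0.74). At 80 ppb the growing libraries had 87.89, 70.01, 242.6 and 23.02, 1 of them below all controls. In expanded leaves of that day it had 302.6, 273.7, 366.5 and 261 at 100 ppb, against 21.09, 1320, 119.7 and 1366 in the control. The expanded controls thus lay on both sides of the libraries at 100 ppb and ranged wider.

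Potri.002G091500 came second, with a difference of 2.60 (SE 0.99). It had 213.7, 268.6, 499.7 and 142.1 normalised reads in growing leaves at 100 ppb, against 12.81, 37.08, 111.9 and 50.37 in the growing controls. The groups did not overlap. In expanded leaves it had 146.2, 300.0, 137.2 and 56.93 at 100 ppb, against 15.59, 365.9, 39.89 and 894.3 in the control, and the controls again surrounded the treated libraries. In growing controls of days 2 and 8 neither gene passed 17.82 in any library.

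Levels differed widely within the 92. At 100 ppb in growing leaves of day 13, 26 genes had a mean of at least 1000 normalised reads, 16 had a mean under 100 and 3 a mean under 10. In 76 genes a growing leaf group of day 13 reached the mean of 100 that the choice asked for, and the other genes entered through another day or leaf position. The level condition therefore read the libraries of days 2 and 8 as well, while the differences on those days were not used. The mean of 100 was reached at both leaf positions by 80 genes, in growing leaves only by 8 and in expanded leaves only by 4. The group with the highest mean was growing leaves at 100 ppb on day 13 in 26 genes, where 3.61% of the eligible genes had theirs, and expanded leaves at 100 ppb on day 8 in 15 (3.24% of the eligible). It was growing leaves at 100 ppb on day 2 in 12 genes (16.8% of the eligible) and expanded leaves at 100 ppb on day 13 in 11 (26.3% of the eligible), both under the share of the eligible genes. For the groups of day 13 at 100 ppb these shares follow in part from the rule. It asked for a rise there in growing leaves and for none of that size in expanded leaves.

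Whether these genes responded before day 13 was tested on the libraries of days 2 and 8 (limma over all 27780 genes, 2-sided, Benjamini-Hochberg adjusted p under 0.05). Growing leaves gave no call at 100 ppb on either day. On day 2 none of the 92 genes was higher or lower at 100 ppb than in the control in growing leaves, with 0.0252% of the tested genes called higher and 0.0288% lower; the median difference was 0.01, 6 genes (6.52%) had an unadjusted p under 0.05, against 8.59% of the tested genes, and edgeR called none. On day 8 none was called, against 0.0288% higher and 0.0108% lower of the tested genes. The median difference was 0.16, 63 of 92 genes were above 0, 8 (8.7%) had an unadjusted p under 0.05, against 5.92% of the tested genes, and edgeR called 1 gene, lower. All 4 libraries at 100 ppb exceeded all 4 controls in 3 genes on day 2 (3.26%, against 1.28% of the tested genes) and in 5 genes on day 8 (5.43%, against 3.14%). The count of day 2 was 1, lower, without control replicate 2 and 2, lower, without replicate 1 at 100 ppb, and that of day 8 stayed at 0 without any single library.

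Expanded leaves, in which the rule asked for a small difference on day 13, had calls among the 92 on both earlier days, so over the 3 days the response to 100 ppb was not confined to growing leaves. On day 2, 22 of the 92 genes (23.9%) rose at 100 ppb and none fell, against 4.74% higher and 3.6% lower of the tested genes, and 5.2% higher of the eligible ones. The median difference was 0.48, 79 genes were above 0, and 15 of the 22 rose at least 2-fold. Potri.011G125300 and Potri.012G054300 met the level condition only through expanded leaves at 100 ppb on day 2, with means of 101.5 and 102.4. For them a rise on this day was favoured by the choice, and both are among the 79. With each library scaled to an equal total the tested genes split into 6.35% higher and 1.48% lower, and 23 of the 92 rose. The median of the 92 genes was 8.40, 8.18, 8.03 and 7.63 in the 4 expanded libraries at 100 ppb, against 7.64, 7.78, 7.58 and 7.62 in the controls, so replicate 4 at 100 ppb lay within the controls and replicate 1 lay farthest above them. The count depended on single libraries: it was 4 without replicate 1 at 100 ppb, 8 without replicate 2 at 100 ppb, 10 without control replicate 1, 12 without control replicate 3 and 7 without control replicate 4. It was 0 when the spread was estimated from the 8 compared libraries alone, where no gene of the whole table was called and 34 of the 92 had an unadjusted p under 0.05.

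On day 8, 19 of the 92 genes (20.7%) rose at 100 ppb in expanded leaves and 1 fell (1.09%), against 11.2% higher and 8.51% lower of the tested genes and 12.3% higher of the eligible ones. The median difference was 0.38, 73 genes were above 0, and 9 were called with a change of at least 2-fold. The medians per library were 9.07, 8.57, 8.59 and 8.98 at 100 ppb and 8.05, 8.18, 8.46 and 8.57 in the controls. The number of called genes was 9 without replicate 1 and 10 without replicate 4 at 100 ppb, the libraries with the highest medians, and 12 with the compared groups alone. The genes called higher on days 2 and 8 shared 6. That is 27.3% of those of day 2, where 20.7% of all 92 genes were called higher on day 8. It is 31.6% of those of day 8, where 23.9% of all 92 were called higher on day 2. Over the 92 genes the differences of the 2 days had a Spearman correlation of -0.07, against 0.47 over the tested genes. Among the 2267 genes raised at both positions on day 13, 637 (28.1%) rose on day 2 and 1395 (61.5%) on day 8, so the 92 genes stood near that list on day 2 and below it on day 8. The difference between the lists was not tested. All 4 expanded libraries at 100 ppb exceeded all 4 controls in 18 genes on day 2 (19.6%, against 5.2% of the tested genes) and in 19 on day 8 (20.7%, against 10.2%). The mean of expanded leaves at 100 ppb was higher on day 8 than on day 13 in 63 of the 92 genes, a description, since day 13 chose the genes.

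**Figure D3:**
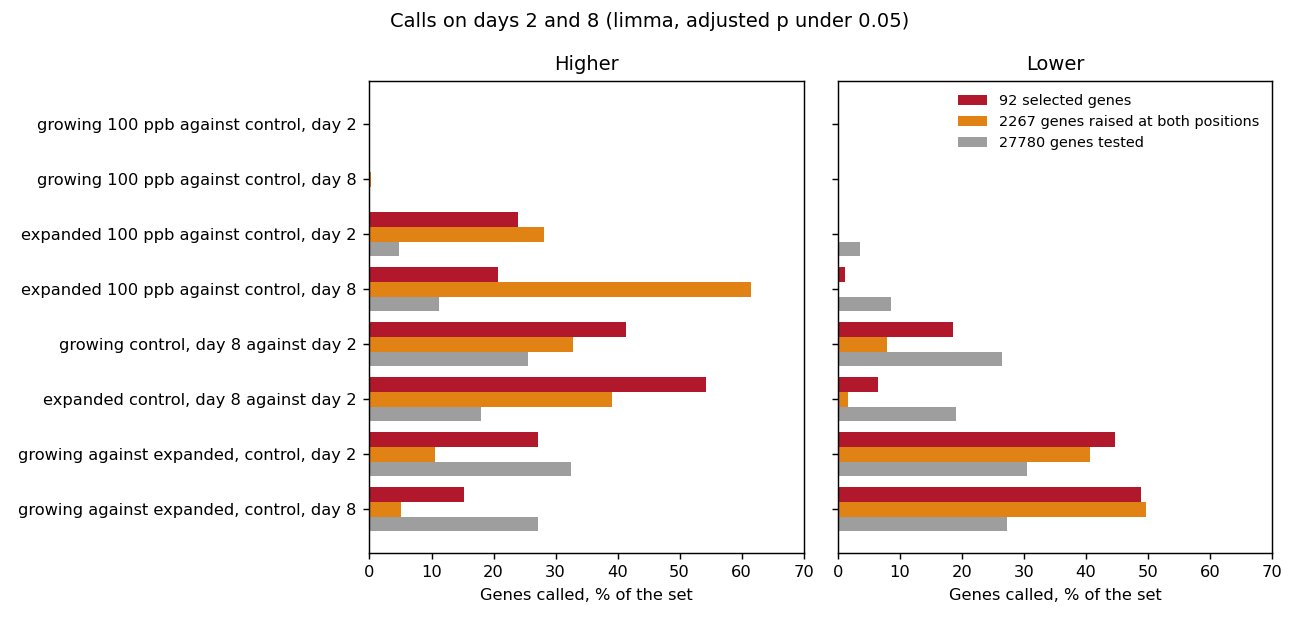
Share of genes called higher (left) or lower (right) on days 2 and 8 in the 92 selected genes (red), the 2267 genes raised at both positions on day 13 (orange) and all 27780 tested genes (grey). In expanded leaves at 100 ppb 23.9% and 20.7% of the 92 rose on days 2 and 8, and in growing leaves none did.

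At 80 ppb no gene of the 92 was called on day 2 or 8 at either position by limma or by edgeR. Of the tested genes none was called in growing leaves (0% higher and 0% lower on both days). In expanded leaves 0.0036% were higher and 0.0072% lower on day 2, and 0.0144% higher and 0.0036% lower on day 8. An unadjusted p under 0.05 was found on day 2 for 3 of the 92 in growing leaves (3.26%, against 2.1% of the tested genes) and 7 in expanded leaves (7.61%, against 4.41%). On day 8 it was found for 6 at each position (6.52%, against 4.46% in growing and 3.31% in expanded leaves). The median differences lay between -0.03 and 0.09.

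Among the genes called in expanded leaves on day 2 with all 4 libraries at 100 ppb above the control mean, Potri.011G031800 and Potri.006G002301 rose most. Potri.011G031800 had 3748, 5578, 1854 and 432.2 normalised reads at 100 ppb, against 389.3, 412.2, 294.1 and 251.5 in the controls (2.61, SE 0.66, limma adjusted p = 0.0101). All 4 treated libraries exceeded the controls, replicate 4 by little. Potri.006G002301 had 473.4, 141.2, 43.29 and 39.29 at 100 ppb, against 7.386, 35.49, 17.42 and 10.28 in the controls (2.72, SE 0.78, limma adjusted p = 0.0217). Here too all 4 exceeded the controls, and 1 library carried most of the reads. Over 16 alternatives the adjusted p (limma, or edgeR where that was the alternative) ran from 0.000488 to 0.132 for Potri.011G031800. For Potri.006G002301 it ran from 0.00416 to 0.179. Without replicate 1 or 2 at 100 ppb it was 0.0733 or 0.0694 for Potri.011G031800 and 0.179 or 0.0701 for Potri.006G002301. For the second gene it was 0.0802 and 0.0789 without control replicate 1 and 4. With the compared groups alone it was 0.132 and 0.143, and neither gene was called. Potri.002G091500 had a larger fitted rise but fell outside that condition, with 352.2, 375.8, 80.64 and 9.168 at 100 ppb, against 0, 82.43, 24.59 and 4.674 in the controls (3.29, SE 0.99, limma adjusted p = 0.0293). Its groups overlapped, and it is named with its values known.

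Among the genes called in expanded leaves on day 8 the largest rises were those of Potri.014G092932 and Potri.001G288600. Potri.002G091500 had a difference of 2.25 (SE 0.99) and was not called (limma adjusted p = 0.0993). Potri.014G092932, the gene with the largest day 13 difference in growing leaves, had 917.8, 316.2, 501.6 and 940.1 normalised reads at 100 ppb, against 71.91, 92.05, 164.4 and 179.5 in the controls (2.35, SE 0.74, limma adjusted p = 0.0197). Potri.001G288600 had 778.4, 961.1, 419.3 and 1083 at 100 ppb, against 112.6, 107.1, 247.6 and 246.1 in the controls (2.21, SE 0.63, limma adjusted p = 0.0101). In both genes all 4 treated libraries exceeded all controls. Over 16 alternatives the adjusted p (limma, or edgeR where that was the alternative) of Potri.014G092932 ran from 0.0028 to 0.0834. By limma it was 0.0679 and 0.0576 without control replicate 1 and 2, and 0.0714 and 0.0834 without replicate 1 and 4 at 100 ppb. For Potri.001G288600 the range over the same alternatives was 0.00387 to 0.0525, the highest value by limma without replicate 4 at 100 ppb. The gene that fell, Potri.004G088400, had 0, 0, 2.329 and 1.119 at 100 ppb, against 2.599, 5.003, 3.838 and 5.985 in the controls. These are a few reads per library, and the call (-1.67, SE 0.54, limma adjusted p = 0.0233) was lost in 7 of 16 alternatives, in which the adjusted p ran from 0.0593 with the compared groups alone to 0.221 with a pseudocount of 8. Among those 7 were the omissions of control replicate 2 (0.0625) or 4 (0.0612) and of replicate 1 (0.0992) or 2 (0.0651) at 100 ppb.

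The response to 100 ppb was also compared between leaf positions directly. On day 2 the response of 2 of the 92 genes was smaller in growing than in expanded leaves and none was larger, against 0.205% smaller and 0.187% larger of the tested genes, or 0.241% and 0.428% with TMM scaling and 0.0792% and 0.0324% with equal totals. The difference of responses was below 0 in most of the 92, with 18 above 0 and a median of -0.51, and 23 genes (25%) had an unadjusted p under 0.05, against 16.5% of the tested genes. On day 8 none was called, against 0.0432% smaller and 0.0252% larger of the tested genes; the median was -0.18, 13 genes (14.1%) had an unadjusted p under 0.05, against 14.6% of the tested genes, and edgeR called none. With the compared groups alone the counts were 0 on day 2 and 1 on day 8. Leaving out 1 library moved the count of day 2 to between 0 and 9, with 9 without expanded replicate 4 and 6 without growing replicate 1 at 100 ppb, and that of day 8 to 1 without expanded replicate 2 at 100 ppb.

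The genes of day 2 were Potri.012G071500 and Potri.016G132700, both of them abundant. Potri.012G071500 had 3236, 1813, 2814 and 2361 normalised reads in growing leaves at 100 ppb and 2695, 2100, 2591 and 2718 in growing controls. In expanded leaves it had 17850, 13850, 9259 and 6673 at 100 ppb and 3392, 5970, 4674 and 4028 in controls. The growing groups overlapped and the expanded groups did not, and the response was smaller in growing leaves by a log2 difference of -1.34 (SE 0.28, limma adjusted p = 0.0167). Potri.016G132700 had 847.1, 293.9, 955.6 and 475.4 in growing leaves at 100 ppb and 715.4, 525, 586.4 and 855.3 in growing controls. In expanded leaves it had 11470, 8569, 6198 and 2737 at 100 ppb and 1429, 2293, 1825 and 1439 in controls. The difference of its responses was -2.08 (SE 0.51, limma adjusted p = 0.046). By day 13 the growing libraries of Potri.016G132700 at 100 ppb had reached 9897, 7265, 9954 and 4171, against 2038, 2909, 2654 and 2481 in growing controls.

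Over 24 alternatives the adjusted p (limma, or edgeR where that was the alternative) ran from 0.000555 to 0.213 for Potri.012G071500 and from 0.0042 to 0.207 for Potri.016G132700. The call was lost in 6 of them for the first gene: without expanded control replicate 1 (0.0557) or 4 (0.0559), expanded 100 ppb replicate 1 (0.0922) or 2 (0.0661), growing control replicate 1 (0.0555), and with the compared groups alone (0.213). For Potri.016G132700 it was lost in 13, namely with equal totals (0.0686), with the compared groups alone (0.207), and on leaving out expanded control replicate 1 (0.0769), 3 (0.0679) or 4 (0.134), expanded 100 ppb replicate 1 (0.121), 2 (0.0981) or 3 (0.0662), growing control replicate 1 (0.0998), 3 (0.0579) or 4 (0.0964), or growing 100 ppb replicate 2 (0.0655) or 4 (0.0771). The direction held in every alternative run for both genes.

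**Figure D4:**
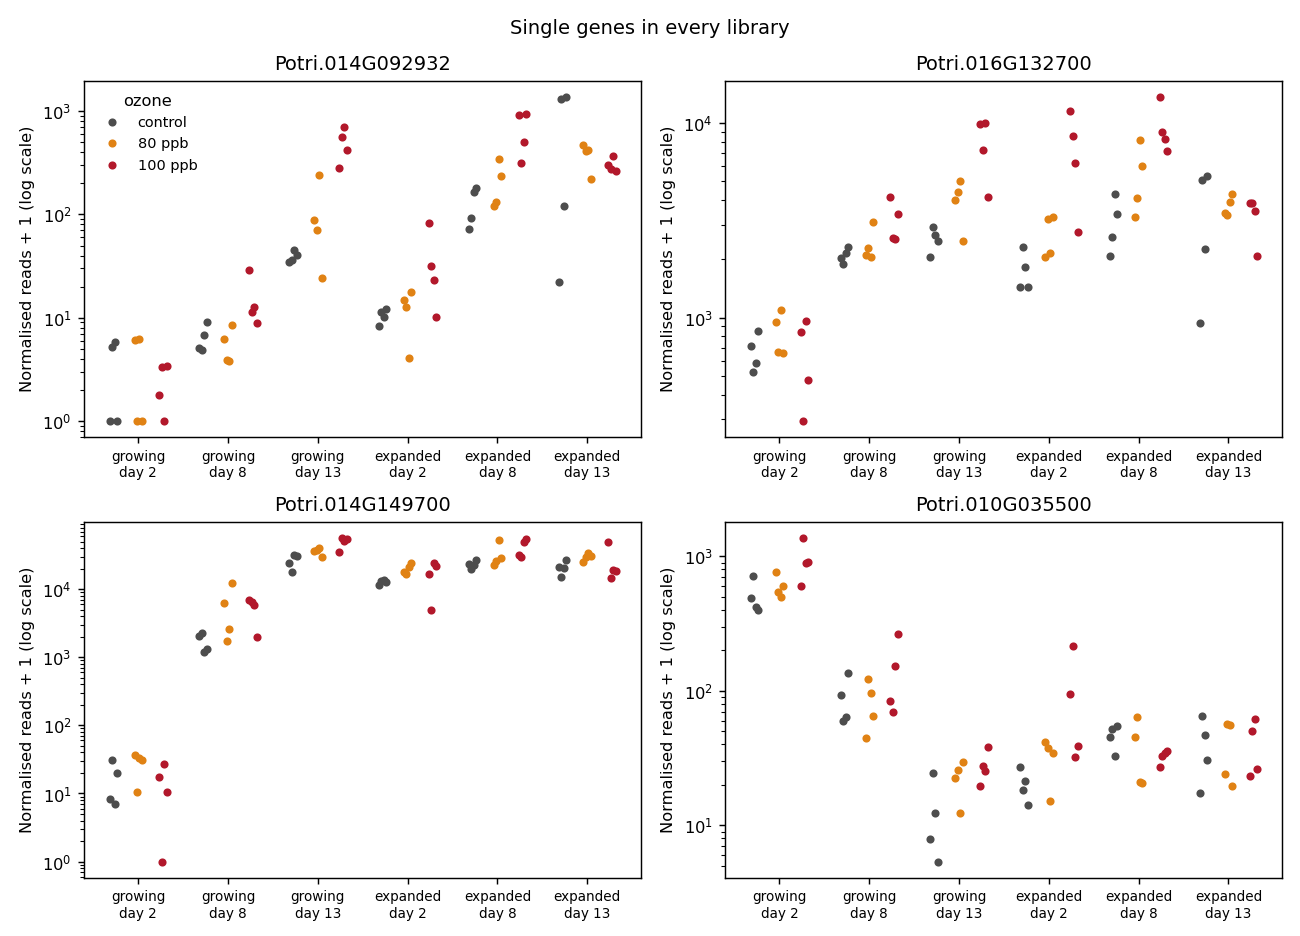
Normalised reads + 1 (log scale) of 4 genes in every library, by leaf position and day, with colours for the ozone level. Potri.014G092932 and Potri.016G132700 are higher at 100 ppb in expanded leaves of day 8 and in growing leaves of day 13, Potri.014G149700 climbs with the days in growing leaves, and Potri.010G035500 declines there.

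In control air these genes already differed between leaf positions. On day 2, 25 of the 92 were higher (27.2%) and 41 lower (44.6%) in growing than in expanded control leaves, against 32.5% higher and 30.5% lower of the tested genes and 33.5% and 32.8% of the eligible ones. On day 8, 14 were higher (15.2%) and 45 lower (48.9%), against 27.1% and 27.2% of the tested and 28.8% and 29.1% of the eligible genes. With equal totals 12 of the 92 were higher and 51 lower on day 8, against 16.9% and 44.1% of the tested genes. The direction was fixed in part by the level condition in the 12 genes that met it at a single leaf position. The median difference was -0.42 on day 2 and -0.55 on day 8, while that of all tested genes was 0 and -0.02; with equal totals it was -0.33 and -0.86, against 0.09 and -0.32 for all tested genes.

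In the genes with the largest of these differences the leaf positions lay far apart. Potri.014G149700 had 7.247, 30.39, 6.045 and 19.08 normalised reads in growing controls on day 2, against 11440, 13080, 13690 and 12670 in expanded controls (-9.84, SE 0.55, limma adjusted p = 1.73e-22, lower in 4 of 4 libraries). Potri.013G100400 had no read in growing controls on day 2, against 217.4, 51.52, 114.8 and 145.8 normalised reads in expanded controls, which is at least 165-fold lower when the floor is 3 reads over the group. Potri.011G093400 and Potri.010G035500 lay the other way. Both met the level condition in growing leaves only, so their excess there was built into the choice and is given without a test. Potri.011G093400 had 1817, 1711, 1555 and 1207 in growing controls, against 1.055, 5.725, 8.197 and 0 in expanded controls. Potri.010G035500 had 492.8, 708.4, 421.9 and 400.6 in growing controls, against 26.38, 17.17, 20.49 and 13.09 in expanded controls. No growing library of these 4 genes came within the range of the expanded ones.

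On day 8 Potri.006G002301 lay lowest in growing controls, with 2.703, 10.19, 2.324 and 5.38 normalised reads there and 153.4, 173.1, 206 and 211 in expanded controls (-5.09, SE 0.78, limma adjusted p = 2.02e-07, lower in 4 of 4 libraries). Potri.005G195000 had 2.703, 2.546, 5.811 and 1.345 in growing controls, against 52.85, 143.1, 131.8 and 184 in expanded controls. It met the level condition in expanded leaves only, so the direction was built into the choice. The same holds the other way for Potri.004G088400, which met the condition in growing leaves of day 2 only and had 52.71, 52.2, 55.78 and 60.52 in growing controls of day 8, against 2.599, 5.003, 3.838 and 5.985 in expanded controls. The groups of these 3 genes did not overlap. The calls of Potri.014G149700, Potri.013G100400 and Potri.006G002301 between leaf positions held in all 16 alternatives each.

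Control leaves also changed with time. In growing controls 38 of the 92 genes (41.3%) were higher and 17 (18.5%) lower on day 8 than on day 2, against 25.6% higher and 26.4% lower of the tested genes and 27.9% and 27.4% of the eligible ones. With equal totals 32 were higher and 18 lower, against 18.3% and 33.3% of the tested genes. In expanded controls 50 (54.3%) were higher and 6 (6.52%) lower, against 17.9% and 19.1% of the tested and 19.5% and 20.8% of the eligible genes. With equal totals 62 were higher and 1 lower there, against 36.9% and 11.2% of the tested genes. The median change of the 92 genes was 0.44 in growing and 0.73 in expanded controls; with equal totals it was 0.29 and 0.98, against -0.14 and 0.27 for all tested genes. The level condition was met on day 2 only by 6 of the 92 genes and on days 8 or 13 only by 14, which fixed part of these directions. Among the 2267 genes raised at both positions, 32.8% were higher and 7.98% lower in growing controls, and 39.1% higher and 1.63% lower in expanded controls.

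The growing control calls divide the 92 genes by their course. In the 38 genes that rose the median control level in growing leaves was 6.28, 8.01 and 8.66 on days 2, 8 and 13, and 9.77 at 100 ppb on day 13. In the 17 that fell it was 8.31, 6.68 and 5.55, and 6.64 at 100 ppb on day 13. In the 37 without a call it was 7.56, 7.64 and 7.34, and 8.87 at 100 ppb. The level at 100 ppb on day 13 thus stood above all 3 control levels in the genes that rose and in those without a call. In the genes that fell it stood between the control levels of days 13 and 8. The rule asked for at least 0.8 above the day 13 control, so these positions follow in part from the choice. The day 13 difference at 100 ppb was of like size in the 3 sets, with medians of 1.04, 0.97 and 1.01, as the threshold of 0.8 bounded it from below. In expanded leaves at 100 ppb, 5 of the 38 that rose, 3 of the 17 that fell and 14 of the 37 without a call were higher on day 2, and 10, 3 and 6 were higher on day 8.

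**Figure D5:**
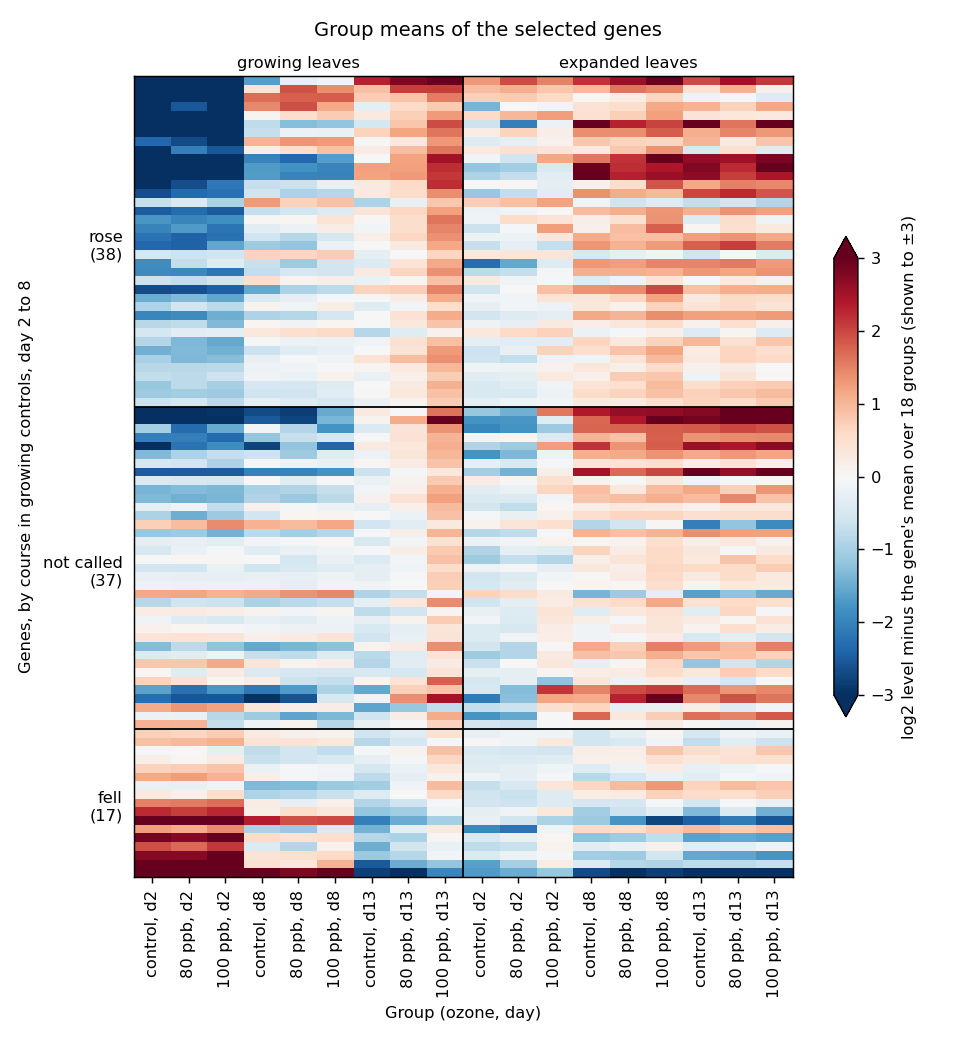
Group means of the 92 genes in 18 groups as log2 level minus the mean of the gene over the groups (colour scale from -3 to 3), growing leaves left and expanded leaves right, with genes divided by their change from day 2 to day 8 in growing controls (38 rose, 37 without a call, 17 fell). The column of growing leaves at 100 ppb on day 13 is higher than its control in every gene, as the rule asked, and the columns of growing leaves on day 2 range from the lowest to the highest values.

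Potri.014G149700 and Potri.013G100400 changed most among those that rose. Potri.014G149700 had 2042, 2253, 1182 and 1317 normalised reads in growing controls on day 8, against 7.247, 30.39, 6.045 and 19.08 on day 2 (6.89, SE 0.55, limma adjusted p = 1.08e-15), and 18180 to 32020 on day 13. Potri.013G100400 had 98.66, 80.21, 45.32 and 119.7 on day 8, against no read on day 2, at least 104-fold higher with the floor of 3 reads over the group. All 4 libraries of day 8 exceeded those of day 2 in both. Potri.011G093400 and Potri.010G035500 were lowest against day 2, but both met the level condition in growing leaves of day 2 and, at 100 ppb, of day 8 only. Their decline was therefore partly built into the choice and is given without a test. Potri.011G093400 had 147.3, 72.57, 62.76 and 95.49 on day 8, against 1817, 1711, 1555 and 1207 on day 2. By day 13 it had at most 1.952 in growing controls and at most 3.056 at 100 ppb, so its place among the 92 rests on a few reads per library. Potri.010G035500 had 91.91, 58.56, 62.76 and 135.8 on day 8, against 492.8, 708.4, 421.9 and 400.6 on day 2. In both genes all 4 libraries of day 8 lay below those of day 2.

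In expanded controls Potri.004G067800 and Potri.004G067750 were highest on day 8 relative to day 2. Potri.004G067800 had 4947, 5922, 9253 and 8579 normalised reads on day 8, against 416.8, 479.7, 401.6 and 321.6 on day 2 (4.11, SE 0.48, limma adjusted p = 1.96e-09). Potri.004G067750 had 499.1, 738.4, 1009 and 792.2 on day 8, against 55.92, 60.68, 45.08 and 30.85 on day 2. It met the level condition on days 8 and 13 only, so its direction was partly built into the choice and is given without a test. All libraries of day 8 exceeded those of day 2 in both; the identifiers are close in number, and whether the genes share reads was not assessed. Potri.004G034000 fell most, with 136.9, 122.1, 106.8 and 136.2 on day 8, against 597.2, 388.1, 525.6 and 589.9 on day 2 (-2.04, SE 0.28, limma adjusted p = 1.06e-07, lower in 4 of 4 libraries). Potri.009G070201 had 59.78, 51.03, 22.39 and 40.4 on day 8, against 66.47, 74.42, 77.87 and 115.9 on day 2 (-0.98, SE 0.38, limma adjusted p = 0.0343). Its call was lost in 5 of 16 alternatives (adjusted p from 0.0212 to 0.182 over all 16): with equal totals (0.0954), and without control replicate 3 (0.0514) or 4 (0.119) of day 2 or replicate 3 (0.182) or 4 (0.0606) of day 8.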

How the data were processed

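The deposited table holds a signal per gene and library, which the authors named normalised counts; the submitters' processing notes list DESeq2 1.24.0, Subread 1.6.1, featureCounts and TopHat2 2.12, and the roles and settings of these tools and the genome build are not given in the sources used here. Per the labels' protocols libraries were stranded, poly(A)-selected and read in pairs. All deposited signal values were whole multiples of a step per library (100% within 0.01 reads, largest deviation 0.000937), so whole reads were recovered for edgeR; all columns belong to a labelled sample. No replicate libraries agreed within sampling noise (chi-square per degree of freedom of 8.7 or more).

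Genes that reached a value of 10 in 4 or more libraries were tested on log2(value + 1) with limma 3.58.1 (R 4.3.3), a mean per group over all 72 libraries (54 residual degrees of freedom), eBayes with a trend, and Benjamini-Hochberg adjustment over all 27780 genes in each of 14 contrasts of days 2 and 8, after a check on simulated data. Day 13 contrasts chose the genes and are described without a test. The genes, contrasts and lists were chosen with earlier results of these data known. Named genes are the 2 with the largest day 13 difference and, per contrast, at most 2 called genes in each direction with the largest change, whose first-group libraries all lay to the same side of the mean of the second.

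Alternatives were a pseudocount of 8, no filter or a filter at 50, TMM scaling, equal totals, the compared groups alone, a replicate block, edgeR 4.0.16 (quasi-likelihood) and each library left out in turn. Lists by gene product, leaf markers and promoter motifs were not used here, since no table at hand pairs the identifiers with products or sequences. Reads shared between near-identical gene copies were not assessed.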

Additional observations from a re-analysis of the deposited data

Results flagged for a closer look

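In 2 of the 92 genes the response to 100 ppb on day 2 differed between leaf positions by a test of the difference itself (limma, adjusted over all tested genes). The difference of the log2 responses, growing minus expanded, was -2.08 for Potri.016G132700 and -1.34 for Potri.012G071500. In both genes the expanded libraries at 100 ppb lay above the expanded controls and the growing groups overlapped. Replicate 1 at 100 ppb had the highest value of its group in expanded leaves in both genes. Without that library the limma adjusted p was 0.121 for Potri.016G132700 (range over 24 alternatives, edgeR among them, 0.0042 to 0.207). For Potri.012G071500 it was 0.0922 (0.000555 to 0.213). The part of that library in the result was not tested further.

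A check for a library far from the others of its group was made 66 times and singled out none. Even so, replicate 1 of the expanded controls of day 13 was the lowest of its group in 67 of the 92 genes. No share of the eligible genes is given for that count.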

How the results depend on the processing

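A pseudocount of 8, no filter, a filter at 50, TMM scaling and the replicate block left all 14 counts of called genes within 1.5 times the reported ones. With equal totals the difference of responses on day 2 gave 1 call in place of 2. With the compared groups alone expanded leaves at 100 ppb gave 0 calls on day 2 (reported 22) and 12 on day 8 (reported 20), and the difference of responses gave 0 on day 2 and 1 on day 8 (reported 0); that fit estimates the spread from 8 or 16 libraries in place of 72. By edgeR growing leaves at 100 ppb gave 1 call on day 8 (reported 0). The cause of the other changes was not tested.

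With each library of a contrast left out in turn, expanded leaves at 100 ppb gave 4 to 26 calls on day 2 and 9 to 25 on day 8, growing leaves at 100 ppb 0 to 2 and 0 to 0, and each comparison at 80 ppb 0 to 0. The 2 calls in growing leaves came without replicate 1 at 100 ppb and 1 came without control replicate 2. The difference of responses gave 0 to 9 on day 2, with 9 without expanded replicate 4 and 6 without growing replicate 1 at 100 ppb, and 0 to 1 on day 8. Growing against expanded controls gave 61 to 66 on day 2 and 56 to 59 on day 8, and day 8 against day 2 gave 51 to 57 in growing and 49 to 56 in expanded controls. The rule kept 50 to 90 of the 92 genes, 88 with TMM scaling, 87 with equal totals and 81 with a pseudocount of 8.

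The replicate block gave 22 calls in expanded leaves at 100 ppb on day 2 and 20 on day 8. Libraries that share a replicate number did not deviate together: over 12 contrasts 11 of 48 such pairs correlated above 0.1, no contrast had all its pairs above 0.1, and 14 of 48 libraries correlated best with their own number, so the numbers were not taken as pairs. Equal totals moved the median of all tested genes by over 0.1 in 3 tested contrasts: -0.32 for growing against expanded controls on day 8, and -0.14 and 0.27 for day 8 against day 2 in growing and expanded controls. Such a shift moves all genes alike. No called change of a named gene on days 2 and 8 reversed its direction in the alternatives. Potri.002G091500 and the day 13 differences were not among the changes checked. Depth limits genes such as Potri.011G093400 and Potri.004G088400, with a few reads per library on day 13.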
